A study of Mus musculus with 18 samples.

Results

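B lymphocytes carry an antigen receptor made of membrane immunoglobulin and the signalling pair encoded by Cd79a and Cd79b. When such a cell turns into an antibody-secreting cell, it changes the end of the heavy chain transcript, so that the immunoglobulin leaves the cell, and it makes the joining chain that links IgM monomers. The peritoneal cavity is known for a resident B cell population that makes natural IgM, and LPS is a classical activator of mouse B cells through TLR4. The 7 genes described here were Cd79a, Cd79b, Ms4a1, Igkc, Ighm, Pax5 and Plac8, out of 13598 genes with a value in these libraries. They were selected on their FPKM in these same libraries, put together as B cell genes after those values had been seen, and Plac8 is in addition known from neutrophils, monocytes and plasmacytoid dendritic cells. Their levels are therefore given as a description, with no p-value.

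RNA-seq libraries came from mouse peritoneal macrophages of 3 genotypes, TLR4-WT, TLR4-K730R and TLR4-K810R, with 3 libraries in each of 6 groups and 18 in all. In both mutant lines, made by CRISPR/Cas9, the named lysine of the cytoplasmic TIR domain of TLR4 is an arginine. Cells of each genotype were either left as a control (mock) or treated with LPS, the cell wall component of Gram-negative bacteria, at 100 ng/mL for 6 h. The methods of the study describe a lavage of the peritoneum after thioglycolate injection and name no sorting step for these cells, and neither the number of mice behind a library nor whether libraries of a group came from separate mice is given in the sources used here. A substitution of a single residue cannot be checked in tables of expression levels.

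The value of a gene is in FPKM, a level per transcript length and per library size, and is the larger of the summed values of its first exons and of its last exons. No read counts were used here and depth is unknown. Rows exist for expressed events only, so that a library without a row is listed at 0. A missing row is not evidence of silence, since Itgam, which macrophages express, had no row either. Cd14, another macrophage gene, had a value in 1 library only, 463 FPKM in TLR4-K810R LPS library 3. The macrophage markers Lyz2 and Cd68 were abundant in every library, with Lyz2 between 5944 and 13290 FPKM and Cd68 between 387 and 771 FPKM. No library was a copy of another. After LPS, 2 libraries stood apart from their groups: across 4286 genes the deviations of TLR4-K730R LPS library 3 correlated at r = -0.26 to -0.16 with its own group and at 0.31 with TLR4-WT LPS library 2, and those of TLR4-WT LPS library 3 at r = -0.24 to -0.07 with its own group. Between whole libraries, TLR4-WT LPS library 3 correlated at r = 0.970 with TLR4-K730R LPS libraries 1 and 2, at 0.9697 and 0.9695 with TLR4-K810R LPS libraries 2 and 3, and at 0.966 and 0.962 with the other libraries of its own group, and TLR4-K730R LPS library 3 at 0.974 with TLR4-WT LPS library 2 and at 0.966 and 0.963 with its own group. Among mock libraries, the deviations of TLR4-K730R library 3 also ran weakly against its own group, at r = -0.097 and -0.027, with -0.017 as its highest value with another group. Whether the label of either LPS library is wrong could not be settled, which bears on every LPS value of TLR4-WT and TLR4-K730R. Where leaving either out changed the overlap of groups described here, or moved a ratio by over 1.5 times, the value without it is given.

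Of the 7 genes, 5 had a value by this rule and 4 passed the filter for testing across genes, at least 1 FPKM in at least 3 of 18 libraries. Cd79a, Cd79b, Igkc and Plac8 passed. Ms4a1 did not, Pax5 had no first-exon or last-exon row, and no row named Ighm, whose last exons were found by position under another gene name as described further on.

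Cd79a (ENSMUSG00000003379, chr7:24897381-24902197 of GRCm38, plus strand) encodes the alpha chain of the signalling pair of the B cell receptor. In mock-treated TLR4-WT cells it stood at 1.45, 0.951 and 1.71 FPKM. In TLR4-WT cells with LPS it was 1.83, 0.576 and 0.671 FPKM. In TLR4-K730R cells it was listed at 0, 1.11 and 0.352 FPKM without LPS and at 0.313, 0.350 and 1.004 FPKM with it. In TLR4-K810R cells the values were 0.514, 0.430 and 0.859 FPKM without LPS and 0.590, 0.919 and 0 with it. LPS and mock libraries overlapped in each genotype. Single libraries decided several means: with LPS the mean was 0.623 instead of 1.03 FPKM in TLR4-WT without library 1, when its libraries lay below every mock library, 0.331 instead of 0.555 FPKM in TLR4-K730R without library 3, and 0.295 instead of 0.503 FPKM in TLR4-K810R without library 2. The mock mean of TLR4-K730R was 0.176 instead of 0.486 FPKM without library 2. Without LPS, the TLR4-K810R libraries all lay below the TLR4-WT ones, as did 6.64% of the 9707 genes tested, with means of 0.601 ± 0.227 and 1.37 ± 0.386 FPKM (SD, n = 3). The log2 difference was -0.56 ± 0.31 (SE) on the log2(FPKM + 1) scale, on which differences between values this low come out small. For TLR4-K730R against TLR4-WT without LPS, the libraries overlapped, and no longer did, with TLR4-K730R lower, without TLR4-K730R library 2 or TLR4-WT library 2.

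Cd79b (ENSMUSG00000040592, chr11:106311341-106314762, minus strand) encodes the beta chain of the same pair. Mock-treated libraries held 1.06, 1.19 and 1.89 FPKM in TLR4-WT, 1.46, 1.17 and 1.18 FPKM in TLR4-K730R, and 1.79, 1.46 and 0.790 FPKM in TLR4-K810R. The 3 genotypes overlapped without LPS. With LPS the values were 0.834, 0.291 and 0.712 FPKM in TLR4-WT and 0.215, 0.420 and 0.518 FPKM in TLR4-K730R, and the 3 TLR4-K810R libraries were listed at 0. In each genotype every LPS library lay below every mock library, although in TLR4-K810R this rests on missing rows. Among the 9707 genes tested, the same held for 39.5% with the wild-type receptor, 45.0% with K730R and 37.9% with K810R. The mean went from 1.38 ± 0.449 to 0.612 ± 0.285 FPKM in TLR4-WT and from 1.27 ± 0.166 to 0.384 ± 0.154 FPKM in TLR4-K730R (SD, n = 3), which is 2.25 and 3.31 times lower. The log2 differences were -0.56 ± 0.20 and -0.72 ± 0.20 (SE), beside medians of -0.28 and -0.36 over all genes tested. When libraries were scaled by median ratios, the differences of Cd79b were -0.41 and -0.55 and those medians -0.02 and -0.04. Without the libraries that stood apart, the mean was 0.562 FPKM in TLR4-WT with LPS and 0.317 FPKM in TLR4-K730R with LPS, and the groups again did not overlap. In bulk RNA, fewer B cells and less RNA per B cell cannot be told apart.

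The alpha and beta chains work as a pair, yet their levels did not run together from library to library. Across 18 libraries, the deviations of Cd79a and Cd79b from their group means correlated at r = 0.13, with values near 1 FPKM or below. For Cd79a 13 libraries and for Cd79b 14 had both a first-exon and a last-exon value, which agreed within 1.1 times in each. The largest ratio between these values was 1.0 for each gene, so the agreement is no separate check on the level.

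**Figure D1:**
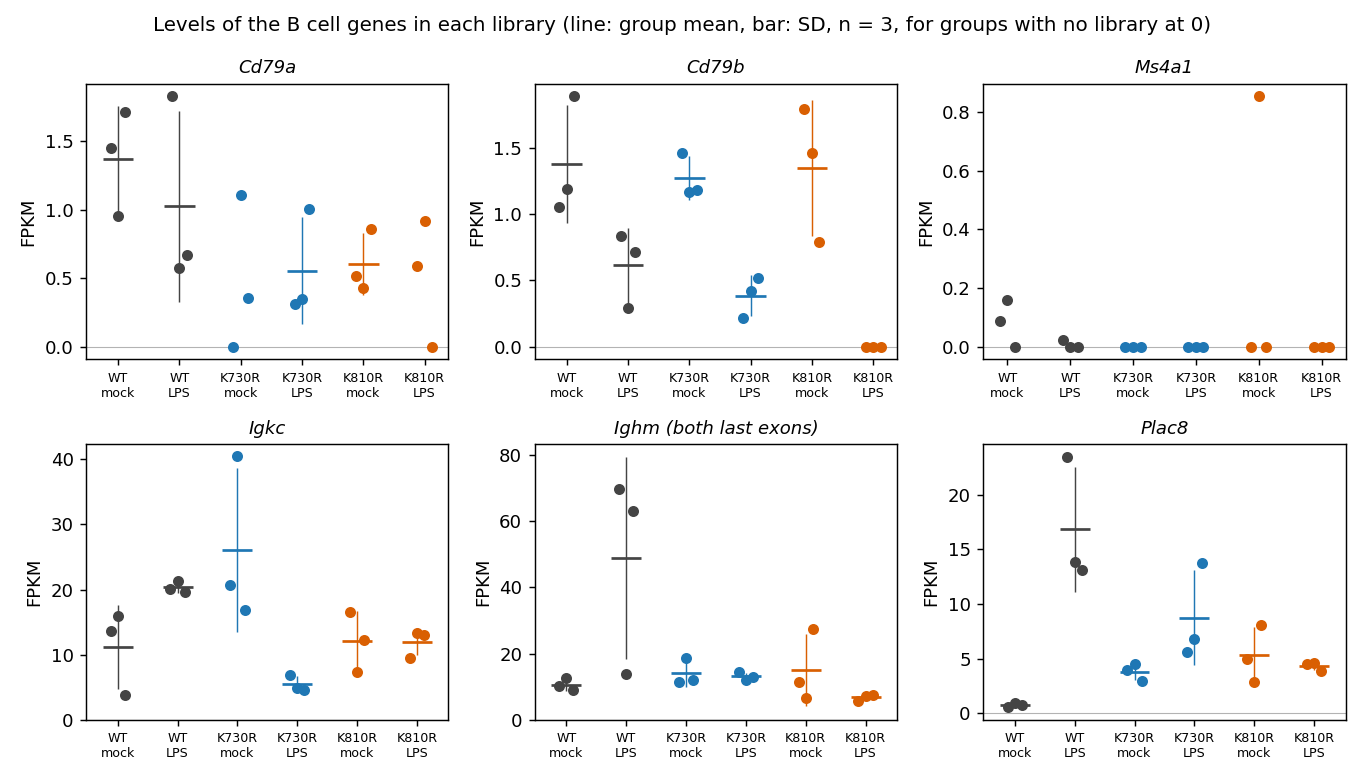
FPKM of Cd79a, Cd79b, Ms4a1, Igkc, Ighm (sum of both last exons) and Plac8 in each of 18 libraries (points) by genotype and treatment, on linear axes; lines are group means and bars the SD of 3 libraries, drawn only where no library is listed at 0. Cd79b points with LPS lie below the mock points of the same genotype, Igkc points with LPS run from 4.59 to 21.3 FPKM in 3 separate sets, and Plac8 is highest in TLR4-WT with LPS.

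Ms4a1 (ENSMUSG00000024673, chr19:11249675-11266241, minus strand), which encodes the surface protein CD20, was listed in 4 of 18 libraries. Its values were 0.0870 and 0.158 FPKM in mock-treated TLR4-WT libraries 1 and 2, 0.0213 FPKM in TLR4-WT LPS library 1 and 0.855 FPKM in mock-treated TLR4-K810R library 2. It was listed at 0 in the other 14 libraries, all 6 of TLR4-K730R among them. Pax5 (ENSMUSG00000014030, chr4:44524757-44710487, minus strand), the factor that maintains B cell identity, had 1 skipped-exon row in each of 2 libraries. These were 0.549 FPKM in mock-treated TLR4-WT library 3 and 0.468 FPKM in TLR4-K810R LPS library 2. Neither gene reached 1 FPKM in any library.

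No row carried the identifier of Ighm (ENSMUSG00000076617, chr12:113418558-113422730, minus strand), the constant region of the IgM heavy chain. Its 2 alternative last exons were listed in all 18 libraries under Ighj1, the first heavy chain joining segment, and were read here by position, a step chosen after the rows had been seen. The last exon at chr12:113420741-113421261 ends the secreted form. The last exon at chr12:113418558-113418834 ends the membrane form. The coding ends are printed because the readouts that follow turn on this choice. They were taken from the GENCODE transcripts of GRCm38, with the last 24 bases that both forms share in lower case and the bases of 1 form in capitals, 59 for the secreted tail and 122 for the membrane anchor and its short cytoplasmic end.
Ighm secreted end: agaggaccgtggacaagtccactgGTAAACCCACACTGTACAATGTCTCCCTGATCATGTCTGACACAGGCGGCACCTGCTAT
Ighm membrane end: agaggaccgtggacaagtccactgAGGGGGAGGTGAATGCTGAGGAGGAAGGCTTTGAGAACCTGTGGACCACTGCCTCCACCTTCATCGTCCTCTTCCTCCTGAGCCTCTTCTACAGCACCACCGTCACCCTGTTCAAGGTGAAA

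The secreted last exon was at 5.61, 9.53 and 4.29 FPKM in mock-treated TLR4-WT and at 54.8, 10.9 and 59.1 FPKM in TLR4-WT with LPS. In TLR4-K730R it was at 5.20, 14.0 and 9.03 FPKM without LPS and at 12.5, 9.35 and 7.56 FPKM with it. In TLR4-K810R it was at 7.88, 4.79 and 22.9 FPKM without LPS and at 4.51, 4.56 and 5.65 FPKM with it. The highest 3 values of the 18 belonged to TLR4-WT LPS libraries 3 and 1 and to mock-treated TLR4-K810R library 3. In TLR4-WT the groups did not overlap, a separation upward that 15.5% of genes tested showed, and the mean was 6.42 times higher with LPS, 41.6 ± 26.7 against 6.48 ± 2.73 FPKM (SD, n = 3). TLR4-WT LPS library 2 lay just above the highest mock library. Without TLR4-WT LPS library 3 the mean with LPS was 32.8 FPKM and the ratio 5.07. In TLR4-K730R and TLR4-K810R the LPS and mock libraries overlapped. In TLR4-K810R they no longer did, with LPS lower, when mock library 2 or LPS library 3 was left out. The TLR4-K810R mock mean went from 11.9 to 6.34 FPKM when library 3 was left out, against 4.91 FPKM with LPS.

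The membrane last exon was at 4.68, 3.12 and 4.61 FPKM in mock-treated TLR4-WT and at 15.0, 3.003 and 4.02 FPKM with LPS, so that a single library was high. In TLR4-K730R it was at 6.34, 4.70 and 2.94 FPKM without LPS and at 1.80, 2.60 and 5.50 FPKM with it. In TLR4-K810R it was at 3.48, 1.84 and 4.53 FPKM without LPS and at 1.20, 2.60 and 1.88 FPKM with it. LPS and mock libraries overlapped in all 3 genotypes. Without TLR4-WT LPS library 1 the mean with LPS in TLR4-WT was under the mock mean, 3.51 against 4.14 FPKM. Without TLR4-K730R LPS library 3, which stood apart, the LPS libraries of TLR4-K730R all lay below the mock ones, with means of 2.20 and 4.66 FPKM, and below those of TLR4-WT with LPS. Without mock library 2, the LPS libraries of TLR4-K810R also lay below the mock ones, with means of 1.90 and 4.01 FPKM.

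The share of the secreted end in both ends was 54.5%, 75.3% and 48.2% in mock-treated TLR4-WT and 78.6%, 78.3% and 93.6% with LPS, without overlap. In TLR4-K730R it was 45.1%, 74.8% and 75.4% without LPS and 87.4%, 78.3% and 57.9% with it. In TLR4-K810R it was 69.3%, 72.2% and 83.5% without LPS and 79.0%, 63.7% and 75.0% with it. Both mutants overlapped between treatments. Without TLR4-K730R LPS library 3 the shares with LPS in that genotype, at a mean of 82.9%, all lay above the mock ones, at 65.1%. Without TLR4-WT LPS library 3 the mean share with LPS in TLR4-WT was 78.4% and the groups still did not overlap. The shares rest on how the deposited program divided fragments between the 2 ends, and no counting interval can be given. Compared between genotypes with LPS, the sum of both ends was 13.9 to 69.8 FPKM in TLR4-WT and 11.95 to 14.3 FPKM in TLR4-K730R, whereas TLR4-K810R held 5.70 to 7.53 FPKM. TLR4-K810R lay below TLR4-WT without overlap, as did 7.89% of genes tested, whereas TLR4-K730R overlapped TLR4-WT and, without TLR4-WT LPS library 2 or TLR4-K730R LPS library 1, lay below it.

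Jchain encodes the joining chain of polymeric IgM and IgA. It is in a wider list of 40 B cell genes that holds none of the 7, and it was tested across all genes. Its values were 0.473, 0.349 and 0.640 FPKM in mock-treated TLR4-WT and 3.78, 1.07 and 6.15 FPKM with LPS. It rose in TLR4-WT with a log2 difference of 1.48 ± 0.41 (SE; limma, adjusted p = 0.0079), and was higher in 3 of 3 LPS libraries than in any mock library. The mean with LPS was 3.67 ± 2.54 FPKM against 0.488 ± 0.146 FPKM (SD, n = 3). TLR4-WT LPS libraries 1 and 3, with the highest secreted Ighm ends, also had the highest Jchain values of the group. The call was lost in 8 of 17 alternatives, over which the limma adjusted p ran from 0.00066 to 0.053. It was lost without any one of the 3 mock libraries, without LPS library 1 or 3, without both libraries that stood apart, without the filter and with the pseudocount at 0.1. Without LPS library 3 the mean with LPS was 2.42 FPKM and the adjusted p 0.045 by limma.

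In TLR4-K730R, Jchain was at 2.22, 1.89 and 1.22 FPKM without LPS and at 1.26, 1.07 and 0.751 FPKM with it. These overlapped, but not when mock library 3 or LPS library 1 was left out. In TLR4-K810R it was at 0.984, 0.301 and 3.44 FPKM without LPS and at 0.485, 0.209 and 0.131 FPKM with it. The TLR4-K810R groups overlapped as well, but not when mock library 2 or LPS library 1 was left out. The log2 differences were -0.44 ± 0.41 and -0.83 ± 0.41 (SE; limma, adjusted p = 0.39 and 0.12). The highest TLR4-K810R value was again that of mock-treated library 3, without which the mock mean was 0.642 instead of 1.58 FPKM. Without LPS, TLR4-K730R lay above TLR4-WT without overlap, at means of 1.78 and 0.488 FPKM and a log2 difference of 0.89 ± 0.41 (SE; limma, adjusted p = 0.63), and TLR4-K810R overlapped TLR4-WT. With LPS, TLR4-K810R lay below TLR4-WT in every library, with a log2 difference of -1.71 ± 0.41 (SE) that did not pass the threshold of 0.01 (limma, adjusted p = 0.044).

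**Figure D2:**
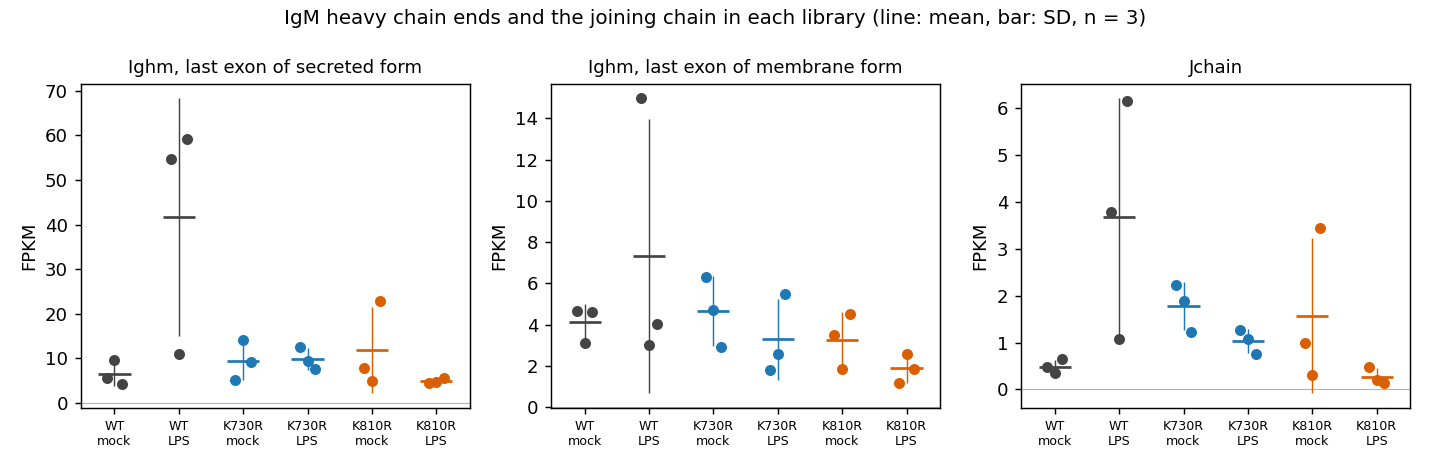
FPKM of the secreted last exon of Ighm, the membrane last exon of Ighm, and Jchain in each of 18 libraries (points) by genotype and treatment, on linear axes that differ between panels; lines are group means and bars the SD of 3 libraries. TLR4-WT LPS libraries 1 and 3 and mock-treated TLR4-K810R library 3 stand high in the secreted and the Jchain panels.

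Igkc (ENSMUSG00000076609, chr6:70726435-70726966, plus strand) is the constant region of the kappa light chain, which pairs with heavy chains in most mouse antibodies. It had the highest median of the 5 genes with a value by the rule, 13.5 FPKM over 18 libraries. Mock-treated libraries held 13.6, 15.9 and 3.79 FPKM in TLR4-WT, 20.7, 40.5 and 16.9 FPKM in TLR4-K730R, and 16.5, 7.32 and 12.3 FPKM in TLR4-K810R. With LPS they held 20.1, 21.3 and 19.6 FPKM in TLR4-WT, 6.89, 4.86 and 4.59 FPKM in TLR4-K730R, and 9.56, 13.4 and 13.01 FPKM in TLR4-K810R. Every LPS library of TLR4-WT lay above every mock library, every LPS library of TLR4-K730R lay below every mock library, and those of TLR4-K810R overlapped. Of all genes tested, 15.5% lay higher without overlap in TLR4-WT and 45.0% lower in TLR4-K730R.

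The mean of Igkc went from 11.1 ± 6.45 to 20.3 ± 0.892 FPKM in TLR4-WT, from 26.04 ± 12.6 to 5.44 ± 1.26 FPKM in TLR4-K730R, and from 12.03 ± 4.60 to 11.99 ± 2.11 FPKM in TLR4-K810R (SD, n = 3). The log2 differences were 1.01 ± 0.41, -1.99 ± 0.41 and 0.05 ± 0.41 (SE). The direction in TLR4-WT and TLR4-K730R was kept when either library that stood apart was left out, with means of 20.7 and 5.87 FPKM with LPS. Mock-treated TLR4-K730R lay above TLR4-WT without overlap (26.04 against 11.1 FPKM), as did 8.91% of genes tested. With LPS, TLR4-K730R lay below TLR4-WT without overlap, as did 7.54% of genes tested. TLR4-K810R with LPS also lay below TLR4-WT without overlap, as did 7.89% of genes tested. The 3 groups with LPS ran in the order TLR4-K730R, TLR4-K810R, TLR4-WT, 4.59 to 6.89, 9.56 to 13.4 and 19.6 to 21.3 FPKM.

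Igkc and Ighm did not rank the libraries alike. Igkc was highest in mock-treated TLR4-K730R library 2, at 40.5 FPKM, where the Ighm ends summed to 18.7 FPKM. In TLR4-WT LPS library 1 Igkc was 20.1 FPKM and the Ighm ends summed to 69.8 FPKM. Over 18 libraries their deviations from group means correlated at r = 0.30. Between Cd79b and Igkc r was -0.42.

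**Figure D3:**
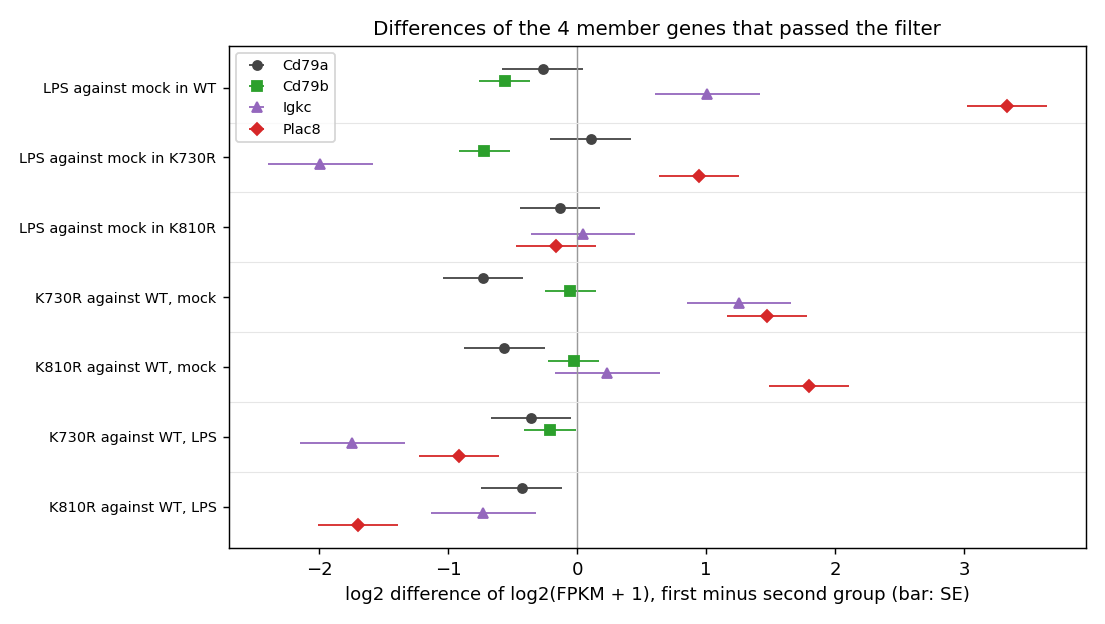
Log2 differences of Cd79a, Cd79b, Igkc and Plac8 on the log2(FPKM + 1) scale (x axis, first minus second group) in 7 comparisons (rows), with SE from the fit over all 9707 genes; Cd79b is not drawn in the 2 comparisons in which it is listed at 0 in all libraries of a group. Igkc lies at 1.01 for LPS in TLR4-WT and at -1.99 for LPS in TLR4-K730R, and Plac8 at 3.33 for LPS in TLR4-WT.

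The first exons listed for Igkc were joining segments, the short coding pieces that link a rearranged variable gene to the constant region. The rows name no variable gene joined to them. They are printed because they show which germline segments gave those first exons. Sequences are from the GENCODE transcripts of GRCm38, plus strand, and were aligned at their 3′ ends. Capitals mark the 20 bases that all 5 segments share.
Igkj1: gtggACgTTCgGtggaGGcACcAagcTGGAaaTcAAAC
Igkj2: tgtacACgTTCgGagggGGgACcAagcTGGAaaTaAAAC
Igkj3: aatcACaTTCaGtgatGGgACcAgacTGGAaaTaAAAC
Igkj4: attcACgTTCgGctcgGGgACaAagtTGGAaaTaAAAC
Igkj5: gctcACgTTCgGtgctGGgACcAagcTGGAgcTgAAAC

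Igkj1 (chr6:70722562-70722599) was listed in 17 libraries, Igkj2 (chr6:70722916-70722954) in 16, Igkj4 (chr6:70723548-70723585) in 11 and Igkj5 (chr6:70723886-70723923) in 12. Igkj3 (chr6:70723223-70723260), known as a nonfunctional segment in the mouse, was listed in none. With each library weighted equally, the mean share of a library's sum was 37.1% ± 18.8 for Igkj1, 35.3% ± 19.9 for Igkj2, 15.3% ± 15.2 for Igkj4 and 12.3% ± 13.2 for Igkj5 (SD, n = 18), and no order between neighbours is drawn from shares that vary this much. From 2 to 4 segments were listed in a library. The largest single segment held between 29.3% and 71.0% of a library's sum, lowest in mock-treated TLR4-K730R library 1 and highest in TLR4-K810R LPS library 1. The 4 segments summed to the Igkc value in each library, so the split by segment adds no second measure of its level.

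**Figure D4:**
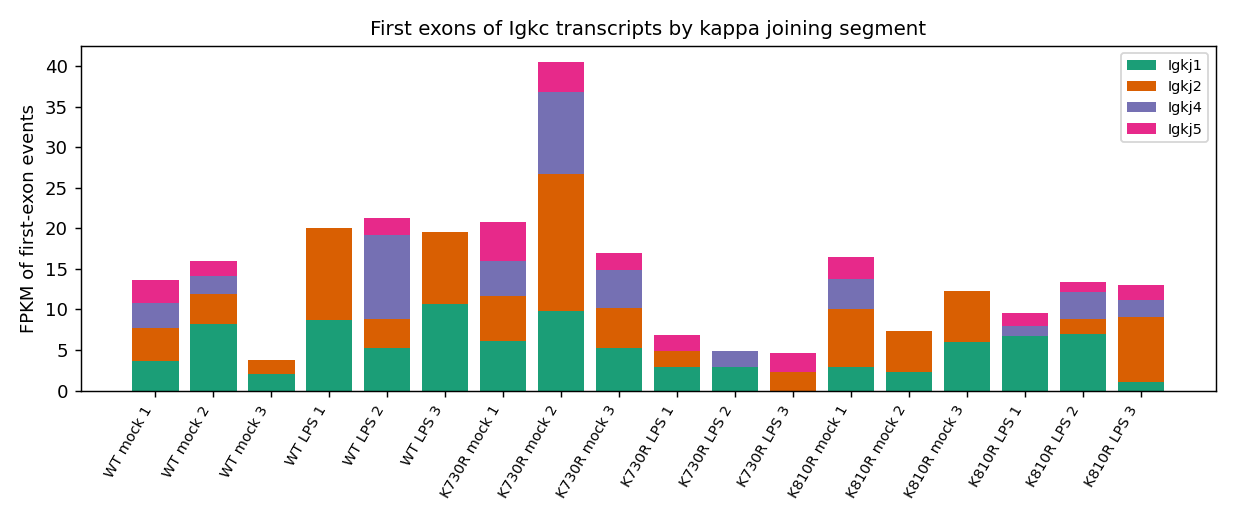
Summed FPKM of first-exon events of Igkc in each of 18 libraries (bars from 0), divided by kappa joining segment. Libraries hold 2 to 4 of the segments Igkj1, Igkj2, Igkj4 and Igkj5, and the total reaches 40.5 FPKM in mock-treated TLR4-K730R library 2.

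Variable genes of the kappa locus had rows of their own. Of 160 annotated Igkv genes, 29 had a value in at least 1 library and Igkv14-126 was the only one listed in all 18. Variable genes share long stretches of sequence, so that fragments may have been divided among them and the single names are uncertain. Their sum was 50.7 FPKM in TLR4-WT LPS library 1, over 21 genes, 31.1 FPKM in TLR4-WT LPS library 3, over 14 genes, and 23.1 FPKM in mock-treated TLR4-K810R library 3, over 12 genes. These were the same 3 libraries that had the highest secreted Ighm ends. The other 15 libraries lay between 2.17 and 10.6 FPKM, over 4 to 15 genes. Igkv1-110 held 26.3% of the sum in TLR4-WT LPS library 1, and Igkv14-126 held 57.9% in TLR4-WT LPS library 3 and 77.3% in mock-treated TLR4-K810R library 3. Of the 4 heavy chain joining segments, Ighj1 was listed in 18 libraries and was highest in TLR4-WT LPS library 3, mock-treated TLR4-K810R library 3 and TLR4-WT LPS library 1, at 18.5, 14.0 and 10.8 FPKM. The Ighm last exons are listed under Ighj1 as well, so these first-exon values are not independent of them.

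Plac8 (ENSMUSG00000029322, chr5:100553725-100572245, minus strand) encodes a small cysteine-rich protein of lymphoid and myeloid cells. Mock-treated libraries held 0.540, 0.897 and 0.736 FPKM in TLR4-WT, 3.93, 4.49 and 2.98 FPKM in TLR4-K730R, and 4.998, 2.89 and 8.07 FPKM in TLR4-K810R. With LPS they held 23.5, 13.9 and 13.2 FPKM in TLR4-WT, 5.64, 6.84 and 13.7 FPKM in TLR4-K730R, and 4.53, 4.61 and 3.87 FPKM in TLR4-K810R. TLR4-WT thus had both the lowest and, with 1 library of TLR4-K730R among them, the highest values. Each mutant lay above TLR4-WT without LPS, with means of 3.80 ± 0.761 and 5.32 ± 2.60 against 0.724 ± 0.179 FPKM (SD, n = 3). Of the genes tested, 8.91% lay higher without overlap in mock-treated TLR4-K730R than in TLR4-WT, and 14.2% in mock-treated TLR4-K810R.

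With LPS the mean of Plac8 in TLR4-WT was 16.8 ± 5.77 FPKM, 23.2 times the mock mean, with a log2 difference of 3.33 ± 0.31 (SE). The groups did not overlap, a separation upward that 15.5% of genes tested showed. Without library 3 the mean with LPS was 18.7 FPKM. In TLR4-K730R it was 8.73 ± 4.36 FPKM, 2.30 times the mock mean, with a log2 difference of 0.94 ± 0.31. The highest TLR4-K730R value was that of library 3, which stood apart, and without it the mean was 6.24 FPKM, 1.64 times the mock mean. A separation upward was found for 13.8% of genes tested in TLR4-K730R. In TLR4-K810R the groups overlapped at 4.33 ± 0.408 against 5.32 ± 2.60 FPKM, with a log2 difference of -0.16 ± 0.31 that turned to 0.06 after scaling by median ratios and to 0.14 without mock library 3. TLR4-K810R with LPS lay below TLR4-WT with LPS without overlap, as did 7.89% of genes tested. TLR4-K730R overlapped TLR4-WT through library 3, and when either that library or TLR4-WT LPS library 3 was left out, it did not.

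Deviations of Plac8 from group means correlated at r = 0.61 with Cd79a, 0.53 with the summed Ighm ends, 0.15 with Igkc and 0.05 with Cd79b over 18 libraries. Some neutrophil-associated genes moved with LPS as well. The summed level of 10 neutrophil genes, 7 of which passed the filter, was 97.2 to 110 FPKM in mock-treated and 306 to 388 FPKM in LPS-treated TLR4-WT, 95.5 to 102 and 293 to 395 FPKM in TLR4-K730R, and 98.8 to 114 and 326 to 351 FPKM in TLR4-K810R. S100a8, a calcium-binding protein of neutrophils and activated monocytes, and Mmp9, a matrix protease, led this list at means of 118 and 46.5 FPKM. These and Camp, an antimicrobial peptide gene, rose in all 3 genotypes (limma, adjusted p below 0.01). Retnlg was called lower with LPS in TLR4-WT (limma, adjusted p = 7.5e-05), with a mock mean of 2.07 FPKM and all 3 LPS libraries listed at 0 for want of a row. Mmp8, a neutrophil collagenase, was lower without overlap in all 3 genotypes, at 6.62 against 10.76, 7.87 against 11.75 and 13.8 against 18 FPKM, and passed the threshold in none. The defining neutrophil marker Ly6g stayed below 0.65 FPKM and Cxcr2 below 0.14 FPKM. S100a9, also in the list, averaged 0.541 FPKM and did not exceed 2.23 FPKM. The monocyte list was led by Fn1 and Ly6c2, at means of 431 and 181 FPKM, and summed to 447 to 468 FPKM in mock-treated and 499 to 926 FPKM in LPS-treated TLR4-WT, whereas LPS and mock sums overlapped in TLR4-K730R, at 502 to 837 and 611 to 637 FPKM, and in TLR4-K810R, at 621 to 804 and 479 to 750 FPKM. Its members did not move together: in TLR4-WT, Ly6c2 was at 27.7 to 37.5 FPKM without and 293 to 461 FPKM with LPS, Fn1 at 413 to 424 and 171 to 456 FPKM, and the chemokine receptor gene Ccr2 at 1.503 to 3.46 and 0.102 to 1.27 FPKM. Ly6c2 was higher with LPS in both mutants too, at 22.9 to 27.1 and 331 to 427 FPKM in TLR4-K730R and 5.27 to 10.8 and 204 to 349 FPKM in TLR4-K810R. In the plasmacytoid dendritic cell list, Tcf4 averaged 9.25 FPKM, Ccr9 0.301 FPKM, and Siglech had no row. Without and with LPS, Tcf4 was at 4.39 to 5.84 and 10.85 to 15.97 FPKM in TLR4-WT and at 3.855 to 6.58 and 13.22 to 19.17 FPKM in TLR4-K730R. In TLR4-K810R it overlapped, at 4.015 to 8.67 and 5.89 to 9.48 FPKM. The part of these cell types in the Plac8 values was not tested.

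Besides the 7 genes, 40 further B cell genes were looked at in 4 groups, coreceptors, transcription factors, signalling molecules and immunoglobulin genes. Of these, 10 had no row in any library, 19 had a value but did not pass the filter, and 11 were tested. Many were low. Fcmr, the IgM receptor, averaged 0.240 FPKM. Ebf1, a factor of early B cell development, had 1 value, 0.453 FPKM, and Bach2 and the coactivator Pou2af1 averaged 0.251 and 0.186 FPKM. Of the other heavy chain constant genes, Ighg3 and Ighg2b averaged 0.155 and 0.0659 FPKM, and the lambda constant genes Iglc1, Iglc2 and Iglc3 had no row. The highest levels were those of Cd37, a tetraspanin, at a mean of 82.3 FPKM, and Blnk, an adaptor of the B cell receptor, at 53.7 FPKM, both of which macrophages are known to express too. Next came Tnfrsf13b, a receptor for BAFF and APRIL, at 11.7 FPKM, Cd22, an inhibitory lectin, at 10.51 FPKM, and the transcription factor Bhlhe41 at 9.88 FPKM. Cd72, an inhibitory coreceptor that macrophages also express, followed at 5.02 FPKM. The counts of the wider list are therefore given for the genes named and not for B cells as a whole.

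**Figure D5:**
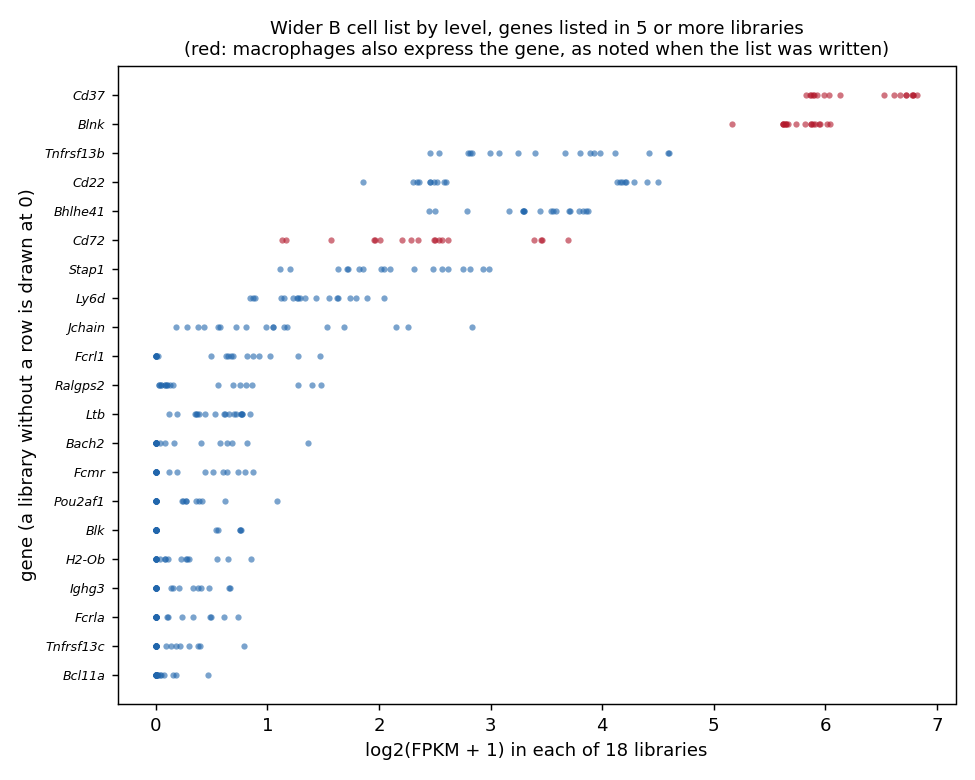
Level of the 21 of 40 further B cell genes listed in 5 or more libraries, on the log2(FPKM + 1) scale (x axis) in each of 18 libraries (points), ordered by mean level; genes marked as also expressed by macrophages are red. A library without a row is drawn at 0. Cd37 and Blnk stand above the rest, and Bcl11a, at a mean of 0.0427 FPKM, is the lowest drawn.

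With LPS, 1 of the 11 tested genes rose and 4 fell in TLR4-WT, while 4 fell with the K730R receptor and 3 with K810R (limma, adjusted p below 0.01). Of all 9707 genes tested, 34.3%, 35.8% and 28.8% passed in these comparisons in either direction. In TLR4-WT 10.4% rose and 23.9% fell, and with K730R and K810R 26.5% and 19.7% fell. The median log2 difference of the 11 was -0.66, -0.77 and -0.75, beside -0.28, -0.36 and -0.26 for all genes tested. Jchain was the gene that rose. Cd37, Cd22 and Tnfrsf13b fell in all 3 genotypes, Bhlhe41 in TLR4-WT, and Fcrl1, a receptor of the Fc receptor-like family, in TLR4-K730R. The last 2 were close to the threshold in the other genotype of the pair, Bhlhe41 at -0.77 ± 0.23 in TLR4-K730R and Fcrl1 at -0.83 ± 0.24 in TLR4-WT (log2 difference, SE; limma, adjusted p = 0.011 and 0.011), so no difference between genotypes is drawn from these calls. Blnk and Cd72 passed in none. After scaling by median ratios the balance in TLR4-WT was 2 higher and 2 lower, with Ly6d, a surface protein of lymphoid cells, as the second gene called higher (log2 difference 0.74 ± 0.21, SE; limma, adjusted p = 0.0099), while 1 was lower with K730R and 3 with K810R. Of all genes tested, that scaling called 15.4% higher and 14.2% lower in TLR4-WT, 15.3% and 13.4% with K730R, and 12.3% and 11.7% with K810R.

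Cd37 went from 97.0, 101 and 105 FPKM to 57.0, 58.1 and 64.6 FPKM in TLR4-WT, with a log2 difference of -0.74 ± 0.10 (SE; limma, adjusted p = 2.1e-05). In TLR4-K730R and TLR4-K810R its log2 differences were -0.84 ± 0.10 and -0.75 ± 0.10 (SE; limma, adjusted p = 5.4e-06 and 2.3e-05). These calls held in all alternatives run, although scaling by median ratios took the log2 differences to -0.42, -0.43 and -0.48. Tnfrsf13b had means of 13.7 and 6.78 FPKM without and with LPS in TLR4-WT, 16.2 and 6.49 FPKM in TLR4-K730R, and 20.4 and 6.64 FPKM in TLR4-K810R, with log2 differences of -0.95, -1.18 and -1.49, each ± 0.25 (SE; limma, adjusted p = 0.0053, 0.0010 and 0.00016). In TLR4-WT its call was lost in 6 of 17 alternatives, up to an adjusted p of 0.062 after scaling by median ratios, which ended it in TLR4-K730R too.

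Cd22 stood at 16.9, 21.7 and 18.5 FPKM in mock-treated TLR4-WT and at 4.64, 3.95 and 2.63 FPKM with LPS, a log2 difference of -2.10 ± 0.34 (SE; limma, adjusted p = 0.00011). In TLR4-K810R the difference was -1.65 ± 0.34 (SE; limma, adjusted p = 0.0011). In TLR4-K730R, mock library 2 was at 4.47 FPKM beside 16.6 and 20.1 FPKM, and the call (log2 difference -1.26 ± 0.34, limma, adjusted p = 0.0065) was lost in 10 of 17 alternatives. Read from first exons alone, Cd22 passed in no genotype and its log2 difference turned to 1.01 with K730R and to 0.036 with K810R. Bhlhe41 fell in TLR4-WT by 0.86 on the log2 scale (SE 0.23; limma, adjusted p = 0.0060), a call lost in 7 of 16 alternatives. Fcrl1 fell in TLR4-K730R, where 2 of 3 LPS libraries were listed at 0 (limma, adjusted p = 0.0099), and this call was lost in 9 of 16 alternatives.

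Between genotypes, limma called none of the 11 tested genes for either mutant against TLR4-WT, with or without LPS, or for the difference between their LPS responses. At an unadjusted p below 0.05 there were 2 for TLR4-K730R and 1 for TLR4-K810R without LPS, 2 and 4 with LPS, and 1 and 2 for the LPS responses. Of all genes tested, 7.70% and 14.1%, 7.69% and 21.8%, and 7.02% and 13.2% had such a p in the same comparisons. At the adjusted threshold these comparisons called, over all genes tested, 0.268% and 1.58% without LPS, 0% and 0.134% with LPS, and 0.0412% and 0.124% for the LPS responses. With library weights, Cd72 and Jchain were called lower in LPS-treated TLR4-K810R than in TLR4-WT (log2 differences -1.66 ± 0.33 and -1.69 ± 0.35, SE; limma, adjusted p = 0.0065 and 0.0076), where that fit called 1.47% of all genes tested lower and 3.77% in either direction. By limma without weights, Cd72 had an adjusted p of 0.052 there, with means of 1.47 and 6.14 FPKM.

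Markers of T cells, NK cells, mast cells and eosinophils were low throughout, unlike the neutrophil list given above. None of 12 T cell genes and none of 6 NK cell genes passed the filter, and their summed levels did not exceed 2.20 and 0.548 FPKM. Thy1 and Cd28 led the first and the granzyme genes Gzmb and Gzma the second. Mast cell genes summed to 4.70 to 5.25 FPKM in mock-treated TLR4-WT and 0.494 to 2.64 FPKM in the mock-treated mutants, led by Tpsb2 and Cma1. Eosinophil genes, led by Siglecf and Ccr3, did not exceed 2.80 FPKM in sum.

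The genes whose levels ran most like Cd79a, Cd79b and Igkc from library to library were sought among 9703 tested genes, by the correlation over 18 libraries between the deviations of log2(FPKM + 1) from the group mean and the mean such deviation of the 3 genes. The 10 highest were Tonsl, Pter, Tcirg1, Ints13, Tmem251, Ptprs, Tmem134, Fam204a, Lrrc39 and D930048N14Rik, with r from 0.81 down to 0.75. None of them is among the 40 further B cell genes. They range from Lrrc39 at a mean of 0.347 FPKM to Tcirg1, a subunit of the vacuolar proton pump, at 395 FPKM. For Plac8 the 5 highest were Mt2, a metallothionein, at r = 0.90, then Dpysl2, the chemokine gene Ccl2, Gatm, an enzyme of creatine synthesis, and Aif1, at r = 0.89, 0.87, 0.86 and 0.85. Ccl2 ranged from 14.5 to 292 FPKM over the 18 libraries and Mt2 from 9.62 to 114 FPKM.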

How the data were processed

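The authors deposited, for each of 18 libraries, FPKM values in one row per transcript event (first exons, last exons, skipped exons and others), each with a mouse Ensembl gene number, in 80071 to 90401 rows. The submitters' processing notes name hg18, a human build, whereas the coordinates match GRCm38. The aligner and counting program are not given in the sources used here. From these values, first-exon and last-exon rows that lay inside their gene, on its strand (GENCODE M21), were summed per gene, which dropped 5.99% of their FPKM, and the larger sum was used. Of 14138 gene numbers, 14126 were found in GENCODE. The 9707 genes that reached 1 FPKM in 3 or more libraries were compared with limma 3.58.1 in R 4.3.3 on log2(FPKM + 1), with all 6 groups in one fit, a variance trended on intensity, and p adjusted over these genes by the Benjamini-Hochberg method, with the study's threshold of 0.01. The script was tested on simulated data. Tables and figures were made with Python 3.11.15, pandas 2.3.3 and matplotlib 3.10.9.

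The 7 genes, the wider lists and the alternatives were chosen with earlier results of these data known. Values of the 7 genes were given no p-value. Besides the 7 genes, named genes were those of the wider list that were called or were the highest 3 of their group, the highest 2 of each other cell type list and the most alike in deviations; further names, Ighm ends, joining segments and variable genes included, were chosen after their values were seen. P-values set a difference between groups against the spread between libraries, which may be technical. Not every gene of the lists is reported here by name.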

Additional observations from a re-analysis of the deposited data

Results flagged for a closer look

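Igkc, the kappa light chain constant region, was higher with LPS in every TLR4-WT library and lower with LPS in every TLR4-K730R library than in any mock library of the same genotype. Of all genes tested, 15.5% lay higher without overlap in TLR4-WT and 45.0% lower without overlap in TLR4-K730R. The means with LPS were 20.3 FPKM in TLR4-WT and 5.44 FPKM in TLR4-K730R, against mock means of 11.1 and 26.04 FPKM. The difference between the LPS responses was not tested, because the gene was chosen with its values known.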

How the results depend on the processing

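For the number of further B cell genes called with LPS in TLR4-WT, 5 in the report, the count was 3 without the filter on low values and 3 from first exons alone, and 2 to 4 when each library was left out in turn. It was 2 without TLR4-WT mock library 1, mock library 3 or LPS library 3, and 3 without mock library 2 or LPS library 1. For TLR4-K730R, 4 in the report, it was 1 after scaling by median ratios, 2 from first exons alone, 7 at a threshold of 0.05, and 2 to 5 with each library left out, with 2 without mock library 3 or LPS library 2. For TLR4-K810R, 3 in the report, it was 3 to 4 with each library left out. For K810R against the wild-type receptor with LPS, 0 in the report, it was 2 with library weights, 1 at a threshold of 0.05 and 1 with both libraries that stood apart left out, an alternative added after seeing the data. Fewer of the list's genes are tested from first exons alone, and otherwise the cause was not tested. From first exons alone, the log2 difference of Cd22 with LPS turned to 1.01 with K730R and 0.036 with K810R. Of the counts under alternatives, 147 stayed within 1.5 times of the reported count and 15 did not. Of the differences of Cd79a, Cd79b, Igkc, Plac8 and the Ighm ends under alternatives, 536 moved by less than 1 SD between libraries and 26 by more. The alternatives were a pseudocount of 0.1, scaling, either end, all rows naming the gene, the replicate number as a block, and libraries left out. The Ighm ends were not scaled, read from all rows or blocked, and Ms4a1 and Pax5 are not counted.

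Same-numbered libraries did not deviate together, with correlations from -0.32 to 0.10, so the numbers were not taken as pairs. With the replicate number as a block the counts with LPS were 5 with the wild-type receptor, 3 with K730R and 3 with K810R, and 0 in the other comparisons. Levels under 1 FPKM cannot be told from a failed estimate at an unknown depth.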
